A study of Homo sapiens with 8 samples.

Results

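Compound 4, named metylcresol in the labels, is a phenolic antioxidant that is added to plastics. Its transcriptional response was taken from 4 of the 8 sequenced samples, chosen by their labels: 2 replicates treated with compound 4 and 2 replicates treated with the solvent DMSO. All of them were HepG2 cells, an established line of human hepatocellular carcinoma, that overexpress the drug-metabolizing enzyme CYP3A4 and were grown with blasticidin. Cells received compound 4 at the IC50 concentration of the growth assay, or 0.2% DMSO, for 1 day. The labels mark the replicates as day 1 and day 2, although a single exposure time is described, and the column name marks replicate 1 of compound 4 as merged. Nothing else says that replicates were separate cultures, so p-values measure the spread between replicates, which may be technical. The fit estimated that spread from all 8 samples, those of the antioxidants compounds 5 and 6 included. Chi-square per degree of freedom between replicates was 17.2 for compound 4, against 5.51, 6.47 and 9.07 for DMSO and compounds 5 and 6.

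Liver cells answer foreign chemicals through receptors and sensors that act on transcription. The aryl hydrocarbon receptor, PXR and CAR induce cytochromes P450 and export pumps, NRF2 induces antioxidant enzymes, MTF1 induces the zinc-binding metallothioneins, and ATF4 induces genes of amino acid supply. Cholesterol synthesis is governed by the SREBP factors, which are released from the endoplasmic reticulum when its membranes hold little sterol. Genes of replication and mitosis and of inflammation were set aside by lists drawn up here rather than taken from the study, so a gene that another inflammation list would hold, such as NUPR1 or AXL, can be among those described.

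The 4 libraries held between 9955207 and 12868048 estimated counts on genes, and 3 counts corresponded to between 0.234 and 0.295 CPM (CPM, counts scaled to library size after TMM normalization). Mitochondrially encoded transcripts took between 4.91% and 5.46% of the counts. The liver label was matched by the markers: all 11 hepatocyte and HepG2 markers were detected, led by ALB, the plasma protein albumin, with 18490 and 16380 CPM in DMSO, against 12910 and 15080 CPM after treatment. Of 23 markers of fibroblasts, endothelium and immune cells, 12 had no count in any of the 4 libraries and 4 were tested. CYP3A4, the overexpressed gene, measured 198 and 206 CPM in DMSO, against 287 and 216 CPM after treatment, and did not pass the test (log2 fold change 0.31 ± 0.13 (SE, n = 2 per group), adjusted p = 0.162). Its log2 fold change lay between 0.09 and 0.52 across the alternative fits.

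Of 13404 genes tested, 1598 (11.9%) passed the edgeR quasi-likelihood test at a Benjamini-Hochberg adjusted p under 0.05, and these are named called below. Of them, 871 (6.5% of the genes tested) were higher with compound 4 and 727 (5.42%) were lower. Outside these lists of replication and mitosis and of inflammation lay 98.0% of the genes called higher and 73.5% of those called lower. More than 2-fold changes were seen in 259 of the genes called higher and 170 of those called lower. The median log2 fold change of all genes tested was 0.0001. A gene may be in several of the gene lists counted below, so counts of different lists are not independent. Each list count is to be read beside the shares of all genes tested, 6.5% called higher and 5.42% lower. DMSO and compound 4 replicates did not overlap in 54.6% of the genes tested and in all 1598 called, so a lack of overlap, given below as a description, is common to every called gene. With 1 library left out, the lone library left in its group is assumed to vary like those of the other groups, and these fits rest on fewer libraries. The number of calls was then 663 without DMSO replicate 1 and 335 without DMSO replicate 2, and it was 1662 and 1346 without compound 4 replicates 1 and 2. No gene called in the full data changed direction in any of these fits, but the lack of overlap in every called gene fixes this in advance.

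The 5 promoters below belong to genes whose changes lead the results, and each run covers the 250 bases before a RefSeq gene start in GRCh38.p14, 5′ to 3′ on the strand of the gene. In the first 2, from the metallothionein genes MT2A (chr16:56608334-56608583, plus strand) and MT1X (chr16:56682220-56682469, plus strand), capitals mark the metal response element letters TGCACNC or TGCGCNC on either strand. In MSMO1 (chr4:165327419-165327668, plus strand) and HMGCS1 (chr5:43313413-43313662, minus strand), both of cholesterol synthesis, they mark CCAAT. In CYP1A1 (chr15:74725529-74725778, minus strand) they mark GCGTG, the core letters bound by the aryl hydrocarbon receptor.
MT2A: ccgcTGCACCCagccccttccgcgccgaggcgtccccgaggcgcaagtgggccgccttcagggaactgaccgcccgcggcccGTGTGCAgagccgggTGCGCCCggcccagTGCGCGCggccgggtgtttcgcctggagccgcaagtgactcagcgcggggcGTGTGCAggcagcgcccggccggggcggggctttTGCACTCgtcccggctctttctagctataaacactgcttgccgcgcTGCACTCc
MT1X: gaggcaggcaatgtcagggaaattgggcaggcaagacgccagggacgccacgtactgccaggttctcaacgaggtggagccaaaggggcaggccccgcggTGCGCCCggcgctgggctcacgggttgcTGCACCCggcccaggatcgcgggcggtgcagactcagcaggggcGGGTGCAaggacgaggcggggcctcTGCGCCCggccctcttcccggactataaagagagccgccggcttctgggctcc
MSMO1: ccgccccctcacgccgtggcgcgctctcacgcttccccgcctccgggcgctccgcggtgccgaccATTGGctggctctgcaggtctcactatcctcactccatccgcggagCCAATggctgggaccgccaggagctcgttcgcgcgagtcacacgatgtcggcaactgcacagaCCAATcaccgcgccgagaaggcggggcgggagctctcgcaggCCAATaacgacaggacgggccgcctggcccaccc
HMGCS1: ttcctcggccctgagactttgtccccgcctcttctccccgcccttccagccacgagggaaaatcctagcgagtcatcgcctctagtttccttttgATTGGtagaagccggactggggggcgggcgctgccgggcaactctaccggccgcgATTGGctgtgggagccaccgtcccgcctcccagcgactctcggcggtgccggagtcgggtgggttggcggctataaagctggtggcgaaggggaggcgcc
CYP1A1: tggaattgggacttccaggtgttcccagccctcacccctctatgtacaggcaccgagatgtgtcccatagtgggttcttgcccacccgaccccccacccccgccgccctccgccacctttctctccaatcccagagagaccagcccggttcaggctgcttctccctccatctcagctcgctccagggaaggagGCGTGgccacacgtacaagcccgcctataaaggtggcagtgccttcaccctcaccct

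Among genes that averaged 5 CPM or more and whose groups did not overlap, the largest changes outside the lists set aside spanned several kinds of gene. Among the 12 largest rises were the long noncoding RNA UCA1, the cytochromes CYP1A1, CYP3A5 and CYP24A1, SLC16A6 of the monocarboxylate carrier family, the water and glycerol channel AQP3, and MT2A. UCA1 measured 0.689 and 0.329 CPM in the DMSO replicates, against 12.1 and 7.10 CPM in those of compound 4 (log2 fold change 4.24 ± 0.54 (SE, n = 2 per group), adjusted p = 0.00132). SLC16A6 measured 5.71 and 3.04 CPM in the DMSO replicates, against 42.2 and 36.0 CPM in those of compound 4 (log2 fold change 3.18 ± 0.26 (SE, n = 2 per group), adjusted p = 0.000213). AQP3 measured 4.13 and 4.27 CPM in the DMSO replicates, against 36.2 and 29.6 CPM in those of compound 4 (log2 fold change 2.96 ± 0.24 (SE, n = 2 per group), adjusted p = 0.000233). The lack of overlap in these genes follows from how they were chosen. The 5 CPM average was taken over both groups, so genes low in DMSO, such as UCA1 and CYP3A5, reached it only through compound 4. The other rises among the 12 were DUSP5 (2.62 ± 0.51, adjusted p = 0.00913), CD22 (2.50 ± 0.23, adjusted p = 0.000336), RASD1 (2.37 ± 0.37, adjusted p = 0.00283), ENG (2.35 ± 0.23, adjusted p = 0.000338) and PHLDA2 (2.31 ± 0.28, adjusted p = 0.00109) on the log2 scale. ENG encodes endoglin, a co-receptor of TGF beta, and RASD1 a small GTPase induced by glucocorticoids. DUSP5 lost significance without DMSO replicate 2 (adjusted p = 0.103).

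Of the 12 largest falls chosen in this way, 6 were genes of the sterol list, with HMGCS1, IDI1, MSMO1 and HSD17B7 among them. The other 6 were KANK4 (-2.06 ± 0.16, adjusted p = 0.000213), HPR (-1.86 ± 0.33, adjusted p = 0.00592), APOC3 (-1.82 ± 0.23, adjusted p = 0.00113), DDC (-1.67 ± 0.17, adjusted p = 0.000442), ACSM3 (-1.65 ± 0.26, adjusted p = 0.00287) and FADS2 (-1.61 ± 0.30, adjusted p = 0.00747). APOC3 encodes an apolipoprotein of triglyceride-rich particles, DDC the decarboxylase of aromatic amino acids and FADS2 a fatty acid desaturase. Of the 31-base stretches in HPR transcripts, 39.0% also occur in other genes, so its level is uncertain. FADS2 lost significance without DMSO replicate 1 (adjusted p = 0.0552).

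**Figure D1:**
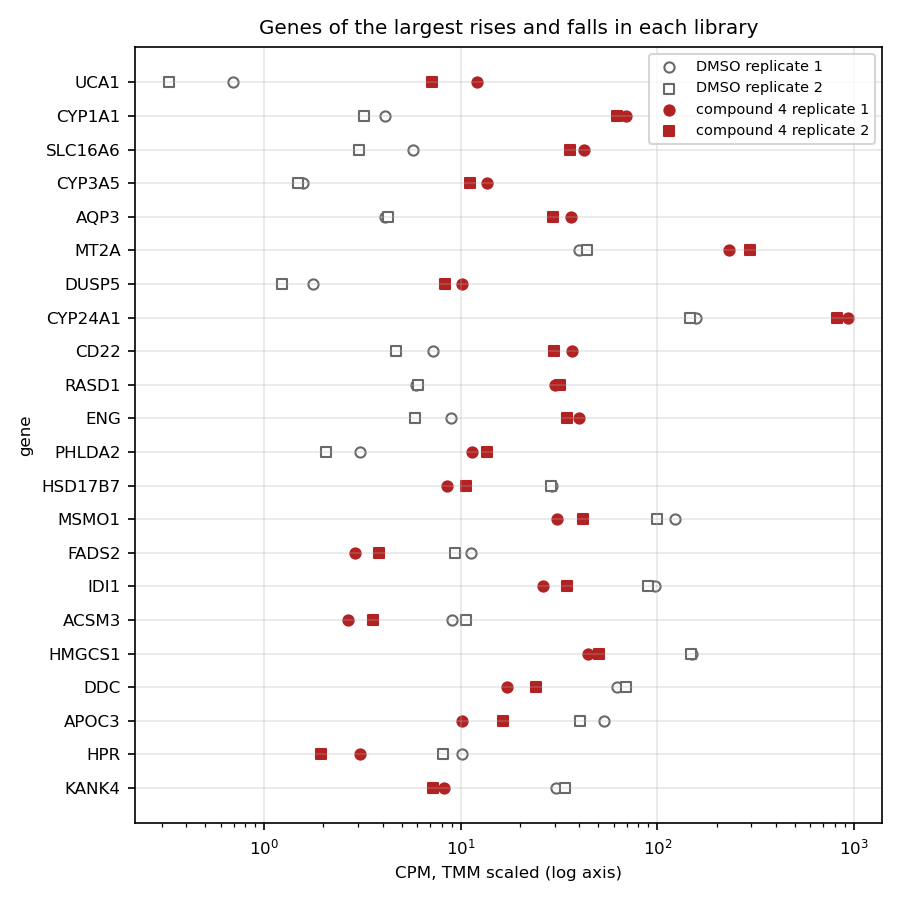
Levels of the 12 genes with the largest rise and 10 of the 12 with the largest fall outside the lists set aside, as CPM on a log axis, with 1 point for each library (open, DMSO; filled, compound 4). Both filled points lie on the same side of both open points, as the choice of these genes required.

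In absolute terms, the called genes that gained most were FTL, AKR1C1, ACTG1, EEF2, IGFBP1 and GDF15. FTL, the light chain of the iron store ferritin, measured 7394 and 6444 CPM in DMSO, against 9466 and 10490 CPM after treatment, and GDF15, a secreted stress hormone, 392 and 294 CPM in DMSO, against 1499 and 1779 CPM after treatment. Both replicates of compound 4 lay above both of DMSO in these genes. The called genes that lost most were TF, AFP, APOA1, SCD, PEG10 and APOH. The iron carrier TF measured 5704 and 5469 CPM in DMSO, against 3538 and 4058 CPM after treatment, and AFP, the fetal plasma protein that HepG2 cells secrete, 3486 and 3266 CPM in DMSO, against 2016 and 2345 CPM after treatment. Fold changes were FTL (0.53 ± 0.11, adjusted p = 0.0128), AKR1C1 (0.86 ± 0.14, adjusted p = 0.00309), ACTG1 (0.94 ± 0.13, adjusted p = 0.0017), EEF2 (0.38 ± 0.10, adjusted p = 0.036), IGFBP1 (1.07 ± 0.19, adjusted p = 0.00508), GDF15 (2.26 ± 0.27, adjusted p = 0.00101), TF (-0.56 ± 0.12, adjusted p = 0.0161), AFP (-0.63 ± 0.12, adjusted p = 0.00861), APOA1 (-0.66 ± 0.17, adjusted p = 0.0312), PEG10 (-0.66 ± 0.16, adjusted p = 0.0224) and APOH (-0.63 ± 0.17, adjusted p = 0.0366) on the log2 scale. FTL and AKR1C1 share 33.3% and 35.7% of their 31-base stretches with other genes. EEF2, APOH, PEG10, APOA1, AFP and TF lost significance without DMSO replicate 1 (adjusted p between 0.0626 and 0.169). FTL, EEF2, IGFBP1, APOH, PEG10, APOA1, AFP and TF did not pass the test without DMSO replicate 2 (adjusted p between 0.0551 and 0.23). EEF2, APOH, APOA1 and TF missed the threshold without compound 4 replicate 1 (adjusted p between 0.0555 and 0.103). PEG10 lost significance without compound 4 replicate 2 (adjusted p = 0.0908). Under the replicate block, EEF2 had an adjusted p of 0.0528. FTL, EEF2 and APOH were not called with a fit of the 4 samples alone (adjusted p between 0.0519 and 0.106). EEF2 was not called with upper-quartile scaling (adjusted p = 0.0505). TF was not called with the transcript length correction (adjusted p = 0.246).

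Of 35 sterol synthesis and uptake genes tested, 23 were called lower and 0 higher, with a median log2 fold change of -0.80, and 12 did not pass the test. HMGCS1, the synthase of an early step, measured 149 and 148 CPM in the DMSO replicates, against 44.5 and 50.2 CPM in those of compound 4 (log2 fold change -1.65 ± 0.13 (SE, n = 2 per group), adjusted p = 0.000213). IDI1, the isomerase of isoprenoid units, measured 97.6 and 89.3 CPM in the DMSO replicates, against 26.1 and 34.6 CPM in those of compound 4 (log2 fold change -1.62 ± 0.18 (SE, n = 2 per group), adjusted p = 0.000662). MSMO1, a demethylating oxidase of sterols, measured 122 and 99.0 CPM in the DMSO replicates, against 30.9 and 41.8 CPM in those of compound 4 (log2 fold change -1.60 ± 0.20 (SE, n = 2 per group), adjusted p = 0.00109). In all 3 genes the groups did not overlap. Fits without DMSO replicate 1 and without DMSO replicate 2 each called 18 members lower.

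Further falls were spread along the route from acetyl-CoA to cholesterol. In the early steps they were ACAT2 (-1.50 ± 0.17, adjusted p = 0.000643), MVK (-0.91 ± 0.14, adjusted p = 0.00227), MVD (-0.94 ± 0.15, adjusted p = 0.00352) and FDPS (-0.90 ± 0.14, adjusted p = 0.00294). At the branch to sterols, the falls were those of squalene synthase, FDFT1 (-1.52 ± 0.19, adjusted p = 0.00122), squalene epoxidase, SQLE (-1.35 ± 0.14, adjusted p = 0.000442), and the cyclase that closes the ring, LSS (-1.14 ± 0.11, adjusted p = 0.000336). In later steps they were CYP51A1 (-0.97 ± 0.12, adjusted p = 0.000972), NSDHL (-0.71 ± 0.17, adjusted p = 0.0234), HSD17B7 (-1.59 ± 0.24, adjusted p = 0.00233), EBP (-0.67 ± 0.17, adjusted p = 0.0254), SC5D (-0.69 ± 0.15, adjusted p = 0.0127) and DHCR7 (-1.06 ± 0.15, adjusted p = 0.00185). PMVK, the kinase between MVK and MVD, did not pass the test, with 8.66 and 7.97 CPM in DMSO, against 10.8 and 11.9 CPM after treatment. CYP51A1 shares 80.0% of its 31-base stretches with other genes. NSDHL, EBP and SC5D lost significance without DMSO replicate 1 (adjusted p between 0.101 and 0.181). EBP and SC5D did not pass the test without DMSO replicate 2 (adjusted p between 0.0581 and 0.0933). NSDHL and EBP missed the threshold without compound 4 replicate 1 (adjusted p between 0.0585 and 0.0828).

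Several other genes tied to SREBP did not pass the test. SREBF2, the factor of the sterol genes, measured 255 and 246 CPM in DMSO, against 223 and 218 CPM after treatment (log2 fold change -0.18 ± 0.09 (SE, n = 2 per group), adjusted p = 0.232), and SREBF1 94.6 and 90.0 CPM in DMSO, against 106 and 119 CPM after treatment (log2 fold change 0.28 ± 0.11 (SE, n = 2 per group), adjusted p = 0.117). INSIG1, which holds SREBP back, was listed at 0 in all 4 libraries. In the same list, the sterol carrier NPC1L1 (-0.83 ± 0.12, adjusted p = 0.00203), the sterol transfer protein STARD4 (-0.80 ± 0.16, adjusted p = 0.0104) and the cholesterol exporter ABCA1 (-0.71 ± 0.20, adjusted p = 0.0457) were called lower. STARD4 and ABCA1 lost significance without DMSO replicate 1 (adjusted p between 0.0632 and 0.0678). STARD4 and ABCA1 did not pass the test without DMSO replicate 2 (adjusted p between 0.0743 and 0.31). ABCA1 missed the threshold without compound 4 replicate 2, where its log2 fold change was -0.39. Under the replicate block, ABCA1 had an adjusted p of 0.0524. ABCA1 was not called with a fit of the 4 samples alone (adjusted p = 0.0741).

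**Figure D2:**
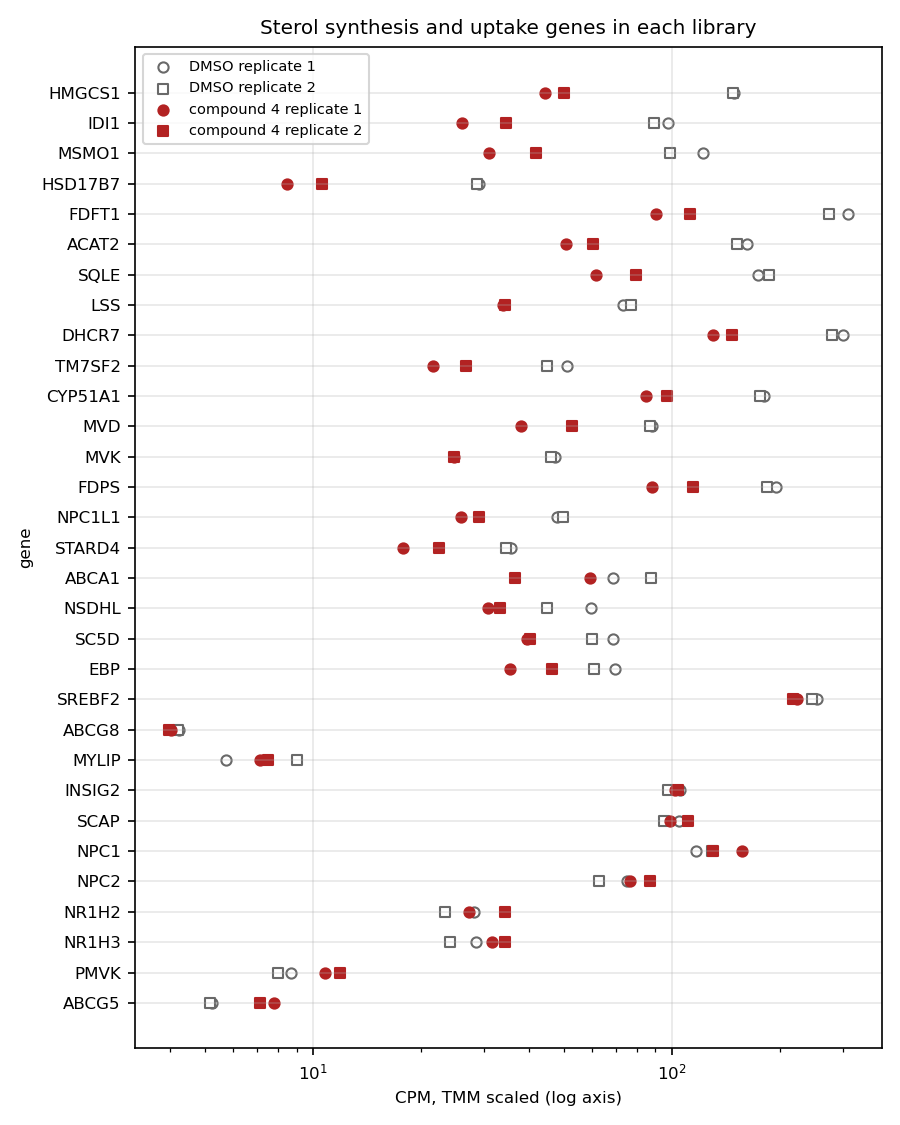
Levels of 31 tested sterol synthesis and uptake genes as CPM on a log axis, with 1 point for each library (open, DMSO; filled, compound 4), ordered by log2 fold change. The 20 genes shown that were called lower have both filled points left of both open points, while SREBF2 and INSIG2 show little distance between groups.

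The sterol element letters TCACNCCAC were found in 0 of the 22 starts of the 17 called genes that have a RefSeq promoter, against 0.88% of all 35093 promoters of this length and 0.87% of those of tested genes. CCAAT was found in 17 of these 22 starts, those of MSMO1 and HMGCS1 among them, against 32.0% of all promoters and 33.5% of those of tested genes. These matches, on either strand, describe the letters only.

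Fatty acid synthesis genes fell in part. Of 27 tested, 8 were called lower and 1 higher, with a median log2 fold change of -0.24. FASN, the fatty acid synthase, measured 983 and 1079 CPM in DMSO, against 629.9 and 591 CPM after treatment (log2 fold change -0.76 ± 0.10 (SE, n = 2 per group), adjusted p = 0.00152), and SCD, which desaturates stearate, 1672 and 1650 CPM in DMSO, against 928 and 811 CPM after treatment (log2 fold change -0.93 ± 0.16 (SE, n = 2 per group), adjusted p = 0.00453). PNPLA3, a lipid droplet acyl hydrolase, measured 23.2 and 28.3 CPM in DMSO, against 7.78 and 9.44 CPM after treatment (log2 fold change -1.58 ± 0.17 (SE, n = 2 per group), adjusted p = 0.00052). The groups did not overlap in any of the 3. Falls were also called for DGAT2 (-0.87 ± 0.16, adjusted p = 0.00717), which makes triglycerides, and ACSS2 (-0.78 ± 0.17, adjusted p = 0.0131), which activates acetate. With the fit repeated without DMSO replicate 1 and without DMSO replicate 2, 5 and 5 members were called lower. DGAT2 and ACSS2 lost significance without DMSO replicate 1 (adjusted p between 0.0574 and 0.0625). ACSS2 did not pass the test without DMSO replicate 2 (adjusted p = 0.102).

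Of 30 genes of PPAR alpha and fatty acid oxidation, 4 were called lower and 0 higher (median -0.01, -0.13 to 0.0192 with 1 library left out), a share of 13.3% against 11.9% of all genes. They were FABP1 (-1.22 ± 0.20, adjusted p = 0.00366), the liver fatty acid carrier, EHHADH (-1.02 ± 0.17, adjusted p = 0.0038) and HADH (-0.82 ± 0.13, adjusted p = 0.00369) of beta oxidation, and ACOT1 (-0.66 ± 0.16, adjusted p = 0.023), which shares 66.0% of its 31-base stretches with other genes. CPT1A, the gate of mitochondrial oxidation, measured 164 and 156 CPM in DMSO, against 195 and 174 CPM after treatment and did not pass (log2 fold change 0.21 ± 0.12 (SE, n = 2 per group), adjusted p = 0.297). Without DMSO replicate 2, 1 member was called lower, and without compound 4 replicates 1 and 2, 1 and 2 were called higher. ACOT1 lost significance without DMSO replicate 1 (adjusted p = 0.141). EHHADH, HADH and ACOT1 did not pass the test without DMSO replicate 2 (adjusted p between 0.0531 and 0.087). ACOT1 missed the threshold without compound 4 replicate 1 (adjusted p = 0.0694).

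The 7 metallothionein genes tested were all called higher, but MT1H and MT1M passed the filter only through treated samples. With at least 10 counts required in each sample, 6 genes of the metallothionein and zinc list were called higher. Of 20 metallothionein and zinc genes tested, 8 were called higher and 2 lower (median log2 fold change 0.21). The most abundant, MT2A, measured 40.1 and 43.9 CPM in the DMSO replicates, against 233 and 296 CPM in those of compound 4 (log2 fold change 2.65 ± 0.26 (SE, n = 2 per group), adjusted p = 0.00035). MT1E measured 24.7 and 31.4 CPM in DMSO, against 86.5 and 137 CPM after treatment, MT1G 15.6 and 21.3 CPM in DMSO, against 51.0 and 87.4 CPM after treatment and MT1X 8.47 and 9.86 CPM in DMSO, against 21.0 and 28.2 CPM after treatment. In each of these genes both replicates of compound 4 were above both of DMSO. Fold changes were MT1E (1.99 ± 0.30, adjusted p = 0.00264), MT1G (1.90 ± 0.26, adjusted p = 0.0017), MT1X (1.42 ± 0.19, adjusted p = 0.00152) and MT1F (1.15 ± 0.20, adjusted p = 0.00516). MT1H and MT1M had at most 0.247 CPM in either DMSO library, at or under 3 counts, and DESeq2 gave no adjusted p for them. MT1E, MT1G and MT1X share 15.6%, 23.3% and 19.8% of their 31-base stretches with other genes. In fits without DMSO replicate 1 and without DMSO replicate 2, 5 and 6 genes of the list were called higher. MT1H, MT1M and MT1F lost significance without DMSO replicate 1 (adjusted p between 0.052 and 0.14). MT1H and MT1M did not pass the test without DMSO replicate 2 (adjusted p between 0.108 and 0.249). MT1M missed the threshold without compound 4 replicate 1 (adjusted p = 0.148). MT1H lost significance without compound 4 replicate 2 (adjusted p = 0.0952).

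SLC30A1, the zinc exporter of the plasma membrane, was the other gene of this list called higher, with 78.9 and 79.4 CPM in DMSO, against 125 and 123 CPM after treatment (log2 fold change 0.65 ± 0.10 (SE, n = 2 per group), adjusted p = 0.00268). The carriers called lower were SLC30A10 (-1.24 ± 0.22, adjusted p = 0.00544), a manganese exporter, and SLC39A10 (-0.68 ± 0.15, adjusted p = 0.0153), a zinc importer. MTF1 itself measured 17.9 and 18.3 CPM in DMSO, against 18.5 and 16.7 CPM after treatment (log2 fold change -0.05 ± 0.14 (SE, n = 2 per group), adjusted p = 0.871). Metal response letters were found upstream of all 4 called-higher genes that have a RefSeq promoter, 20 matches in all, of which 7 lay in MT2A and 4 in MT1X as shown above. Each of the 4 has 1 start, and 24.8% of all promoters and 31.55% of those of tested genes hold at least 1 match. SLC39A10 lost significance without DMSO replicate 1 (adjusted p = 0.0655). SLC30A10 and SLC39A10 did not pass the test without DMSO replicate 2 (adjusted p between 0.0598 and 0.11). SLC39A10 missed the threshold without compound 4 replicate 2 (adjusted p = 0.0699).

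CYP1A1, the classical target of the aryl hydrocarbon receptor, measured 4.13 and 3.21 CPM in the DMSO replicates, against 69.2 and 62.1 CPM in those of compound 4 (log2 fold change 4.17 ± 0.30 (SE, n = 2 per group), adjusted p = 0.000213). The groups were far apart. Of 10 tested genes of this receptor, 3 were called higher and 0 lower (median 0.33, 0.20 to 0.41 with 1 library left out): CYP1A1, the receptor gene itself, AHR (0.61 ± 0.11, adjusted p = 0.00681), and the amino acid carrier SLC7A5 (0.59 ± 0.11, adjusted p = 0.00837). TIPARP, another target, measured 17.1 and 19.6 CPM in DMSO, against 19.9 and 16.1 CPM after treatment (log2 fold change -0.03 ± 0.16 (SE, n = 2 per group), adjusted p = 0.933), and CYP1B1 was listed at 0 in all 4 libraries. AHR shares 31.6% of its 31-base stretches with other genes. The GCGTG letters occur 1 time in the CYP1A1 promoter shown, and in 32.2% of all promoters and 43.6% of those of tested genes. With the fit repeated without DMSO replicate 1 and without DMSO replicate 2, 2 and 1 of the list were called higher, and with no filter 1 was called lower. AHR lost significance without DMSO replicate 1 (adjusted p = 0.05001). SLC7A5 and AHR did not pass the test without DMSO replicate 2 (adjusted p between 0.079 and 0.0938).

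CYP3A5, a close relative of the overexpressed enzyme, measured 1.57 and 1.48 CPM in the DMSO replicates, against 13.5 and 11.2 CPM in those of compound 4 (log2 fold change 3.01 ± 0.29 (SE, n = 2 per group), adjusted p = 0.000336). Both compound 4 replicates exceeded both DMSO replicates. Of 15 tested genes of CYP3A, PXR and CAR, 4 were called higher and 1 lower (median 0.30, 0.20 to 0.29 with 1 library left out). The others called higher were CYP2B6 (1.21 ± 0.29, adjusted p = 0.0222), a CAR target, UGT1A1 (1.49 ± 0.43, adjusted p = 0.0487), the bilirubin transferase, and ABCC2 (0.78 ± 0.13, adjusted p = 0.00352), a bile canalicular pump, and the one called lower was PPP1R3C (-1.18 ± 0.24, adjusted p = 0.0109), a glycogen-targeting phosphatase subunit. UGT1A1 shares 51.3% of its 31-base stretches with other genes, CYP2B6 22.5% and CYP3A4 19.6%. ABCB1 measured 128 and 130.1 CPM in DMSO, against 156 and 129 CPM after treatment (log2 fold change 0.14 ± 0.14 (SE, n = 2 per group), adjusted p = 0.568). Repeating the fit without DMSO replicate 2, 2 members were called higher. PPP1R3C lost significance without DMSO replicate 1 (adjusted p = 0.0672). PPP1R3C, CYP2B6 and UGT1A1 did not pass the test without DMSO replicate 2 (adjusted p between 0.0826 and 0.279). CYP2B6 and UGT1A1 missed the threshold without compound 4 replicate 1 (adjusted p between 0.0634 and 0.099). UGT1A1 lost significance without compound 4 replicate 2 (adjusted p = 0.069). UGT1A1 was not called with DESeq2 (adjusted p = 0.0581). UGT1A1 was not called with a fit of the 4 samples alone (adjusted p = 0.0658). UGT1A1 was not called with scaling by library size alone (adjusted p = 0.0522). UGT1A1 was not called with RLE scaling (adjusted p = 0.0502).

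CYP24A1, the hydroxylase that breaks down vitamin D, was already abundant and rose further, with 158 and 146 CPM in the DMSO replicates, against 934 and 817 CPM in those of compound 4 (log2 fold change 2.52 ± 0.15 (SE, n = 2 per group), adjusted p = 6.72e-05). The groups did not overlap. In the list of retinoid and vitamin D genes, 5 of 18 were called higher and 1 lower (median 0.07, 0.0292 to 0.13 with 1 library left out). Rises were also called for RDH10 (0.72 ± 0.14, adjusted p = 0.00898), DHRS3 (0.43 ± 0.12, adjusted p = 0.0456) and TGM2 (0.59 ± 0.14, adjusted p = 0.024), which make, reduce or respond to retinoids. In fits without DMSO replicate 2, 1 member was called higher. RDH10 lost significance without DMSO replicate 1 (adjusted p = 0.05001). RDH10, DHRS3 and TGM2 did not pass the test without DMSO replicate 2 (adjusted p between 0.0997 and 0.359). DHRS3 and TGM2 missed the threshold without compound 4 replicate 1 (adjusted p between 0.0649 and 0.0857). DHRS3 lost significance without compound 4 replicate 2 (adjusted p = 0.0774). DHRS3 was not called with a fit of the 4 samples alone (adjusted p = 0.0858). DHRS3 was not called with scaling by library size alone (adjusted p = 0.0593). DHRS3 was not called with upper-quartile scaling (adjusted p = 0.0597).

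Among export pumps and organic anion carriers, 7 of 21 genes were called higher and 2 lower (median 0.27). ABCC3, a pump of the basolateral membrane, measured 70.3 and 67.1 CPM in DMSO, against 163 and 167 CPM after treatment (log2 fold change 1.27 ± 0.13 (SE, n = 2 per group), adjusted p = 0.000442). SLCO4C1 was called lower, with 2.56 and 3.21 CPM in DMSO, against 0.513 and 0.390 CPM after treatment (log2 fold change -2.66 ± 0.42 (SE, n = 2 per group), adjusted p = 0.00332). ABCG2 measured 53.8 and 46.1 CPM in DMSO, against 72.7 and 63.0 CPM after treatment (log2 fold change 0.44 ± 0.14 (SE, n = 2 per group), adjusted p = 0.0592). In phase II conjugation, 3 of 27 genes were called higher and 2 lower (median 0.03, -0.11 to 0.17 with 1 library left out), among them EPHX1 (0.53 ± 0.11, adjusted p = 0.0115), MGST2 (0.57 ± 0.12, adjusted p = 0.0146), UGT2A3 (-0.58 ± 0.11, adjusted p = 0.00839) and GSTM4 (-0.77 ± 0.17, adjusted p = 0.014). The share called among conjugation genes was 18.5%, against 11.9% of all genes tested. With the fit repeated without DMSO replicate 2, 2 pumps or carriers and 0 conjugation genes were called higher. MGST2, EPHX1 and GSTM4 lost significance without DMSO replicate 1 (adjusted p between 0.0655 and 0.0968). MGST2, UGT2A3, EPHX1 and GSTM4 did not pass the test without DMSO replicate 2 (adjusted p between 0.0748 and 0.14). GSTM4 missed the threshold without compound 4 replicate 1 (adjusted p = 0.0506).

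Of 35 NRF2 antioxidant genes, 16 were called higher and 0 lower (median 0.43), and 5 had a log2 fold change below 0. OSGIN1 measured 45.9 and 39.2 CPM in DMSO, against 98.0 and 93.7 CPM after treatment (log2 fold change 1.17 ± 0.11 (SE, n = 2 per group), adjusted p = 0.000338). TXNRD1, thioredoxin reductase, measured 363 and 362 CPM in DMSO, against 671 and 553 CPM after treatment (log2 fold change 0.75 ± 0.14 (SE, n = 2 per group), adjusted p = 0.00691). AKR1B10, an aldo-keto reductase, measured 438 and 375 CPM in DMSO, against 866 and 864 CPM after treatment (log2 fold change 1.09 ± 0.12 (SE, n = 2 per group), adjusted p = 0.000662). The groups did not overlap in these genes. The cystine carrier SLC7A11 (1.06 ± 0.24, adjusted p = 0.016), the glutamate cysteine ligase subunit GCLM (0.63 ± 0.14, adjusted p = 0.0156) and sulfiredoxin SRXN1 (0.89 ± 0.13, adjusted p = 0.00213) were among those called. SRXN1 shares 84.9% of its 31-base stretches with other genes and AKR1B10 30.7%. GCLM, SLC7A11 and TXNRD1 lost significance without DMSO replicate 1 (adjusted p between 0.0512 and 0.104). GCLM, SLC7A11 and TXNRD1 did not pass the test without DMSO replicate 2 (adjusted p between 0.0712 and 0.119). SLC7A11 missed the threshold without compound 4 replicate 1 (adjusted p = 0.0548).

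The best known members of this list did not pass the test. HMOX1, heme oxygenase, measured 127 and 119.5 CPM in DMSO, against 143 and 150.1 CPM after treatment (log2 fold change 0.25 ± 0.10 (SE, n = 2 per group), adjusted p = 0.141), and NQO1, a quinone reductase, 1635 and 1471 CPM in DMSO, against 1680 and 1893 CPM after treatment (log2 fold change 0.20 ± 0.11 (SE, n = 2 per group), adjusted p = 0.255). The antioxidant element letters TGACNNNGC were found in 4 of the 17 starts of 13 genes called higher, against 10.9% of all promoters and 12.05% of those of tested genes. Fits without DMSO replicate 1 and without DMSO replicate 2 called 9 and 6 members higher, and the transcript length correction called 1 lower.

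Of 36 integrated stress response genes, 12 were called higher and 0 lower (median 0.42). NUPR1, a stress-induced chromatin protein, measured 4.63 and 4.44 CPM in DMSO, against 20.9 and 18.6 CPM after treatment (log2 fold change 2.12 ± 0.18 (SE, n = 2 per group), adjusted p = 0.000291). DDIT3, the transcription factor CHOP, measured 10.3 and 6.25 CPM in DMSO, against 19.9 and 20.4 CPM after treatment (log2 fold change 1.30 ± 0.27 (SE, n = 2 per group), adjusted p = 0.0118). ASNS, which makes asparagine, measured 63.8 and 56.8 CPM in DMSO, against 119 and 119 CPM after treatment (log2 fold change 0.98 ± 0.13 (SE, n = 2 per group), adjusted p = 0.00159), and shares 42.5% of its 31-base stretches with other genes. The groups did not overlap. Also called were ADM2 (1.33 ± 0.19, adjusted p = 0.00195) and SLC3A2 (1.21 ± 0.17, adjusted p = 0.00179), the heavy chain of amino acid exchangers. ATF4 measured 407 and 407 CPM in DMSO, against 505 and 574 CPM after treatment (log2 fold change 0.41 ± 0.12 (SE, n = 2 per group), adjusted p = 0.0538), and TRIB3 209 and 173 CPM in DMSO, against 256 and 292 CPM after treatment (log2 fold change 0.52 ± 0.19 (SE, n = 2 per group), adjusted p = 0.108). The element letters TGATGNAA were found in 3 of the 16 starts of 9 genes called higher, against 3.15% of all promoters and 1.62% of those of tested genes. Repeating the fit without DMSO replicate 1 and without DMSO replicate 2, 8 and 5 members were called higher. Of this list, 1 member was called lower by DESeq2, the replicate block, the fit of 4 samples and the fit with no filter, and 3 with the transcript length correction. DDIT3 lost significance without DMSO replicate 2 (adjusted p = 0.128).

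Of 26 amino acid transporter genes, 10 were called higher and 0 lower (median 0.35, 0.18 to 0.50 with 1 library left out), and of 20 tRNA synthetase genes 6 and 0 (median 0.21). The glutamine carrier SLC1A5 measured 400.1 and 383 CPM in DMSO, against 569 and 629 CPM after treatment (log2 fold change 0.61 ± 0.11 (SE, n = 2 per group), adjusted p = 0.00718), and SLC38A2 859 and 878 CPM in DMSO, against 1367 and 1300 CPM after treatment (log2 fold change 0.62 ± 0.10 (SE, n = 2 per group), adjusted p = 0.00342). The synthetases called were AARS1 (0.45 ± 0.10, adjusted p = 0.016), CARS1 (0.55 ± 0.13, adjusted p = 0.0213), GARS1 (0.47 ± 0.11, adjusted p = 0.0197), MARS1 (0.47 ± 0.11, adjusted p = 0.0204), SARS1 (0.54 ± 0.13, adjusted p = 0.0245) and YARS1 (0.41 ± 0.10, adjusted p = 0.0262). In fits without DMSO replicate 1 and without DMSO replicate 2, 6 and 2 transporters and 0 and 0 synthetases were called higher. SARS1, AARS1, GARS1, CARS1, YARS1 and MARS1 lost significance without DMSO replicate 1 (adjusted p between 0.0802 and 0.145). SARS1, AARS1, GARS1, CARS1, YARS1, MARS1 and SLC1A5 did not pass the test without DMSO replicate 2 (adjusted p between 0.0848 and 0.182). SARS1 and GARS1 missed the threshold without compound 4 replicate 1 (adjusted p between 0.0512 and 0.056). CARS1 and YARS1 lost significance without compound 4 replicate 2 (adjusted p between 0.0525 and 0.0719). YARS1 was not called with a fit of the 4 samples alone (adjusted p = 0.0567).

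Of 31 folding genes of the endoplasmic reticulum, 1 was called higher and 1 lower (median 0.11, 0.0151 to 0.13 with 1 library left out): DNAJB9 (0.86 ± 0.14, adjusted p = 0.00415) and DNAJB11 (-0.47 ± 0.12, adjusted p = 0.0316). The share called among folding genes was 6.45%, against 11.9% of all genes tested. HSPA5, the chaperone BiP, measured 1311 and 1322 CPM in DMSO, against 1175 and 1329 CPM after treatment (log2 fold change -0.07 ± 0.10 (SE, n = 2 per group), adjusted p = 0.701). Of 24 cytosolic heat shock chaperone genes and 32 proteasome genes, 0 were called by edgeR or DESeq2, and 2 of each had an unadjusted p under 0.05. Without compound 4 replicate 2, 1 proteasome gene was called lower. HSPA1A measured 148 and 222 CPM in DMSO, against 194 and 276 CPM after treatment (log2 fold change 0.34 ± 0.21 (SE, n = 2 per group), adjusted p = 0.333) and shares 73.6% of its 31-base stretches with other genes. Its log2 fold change lay between 0.08 and 0.66 across the alternative fits. DNAJB11 lost significance without DMSO replicate 1 (adjusted p = 0.0974). DNAJB11 did not pass the test without DMSO replicate 2 (adjusted p = 0.214). DNAJB11 missed the threshold without compound 4 replicate 1 (adjusted p = 0.102). DNAJB11 was not called with a fit of the 4 samples alone (adjusted p = 0.0571).

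SQSTM1, the autophagy receptor p62, measured 337 and 310.3 CPM in the DMSO replicates, against 1121 and 1193 CPM in those of compound 4 (log2 fold change 1.84 ± 0.17 (SE, n = 2 per group), adjusted p = 0.000336). Of 35 autophagy genes, 10 were called higher and 1 lower (median 0.20), and of 40 lysosome genes 10 and 0 (median 0.28). The rises included the phagophore protein WIPI1 (1.16 ± 0.17, adjusted p = 0.002) and the cargo receptor OPTN (0.86 ± 0.20, adjusted p = 0.0176), and the fall was that of the mitophagy receptor BNIP3 (-0.52 ± 0.10, adjusted p = 0.0108). The lysosomal protease CTSB measured 715 and 626 CPM in DMSO, against 1508 and 1519 CPM after treatment (log2 fold change 1.17 ± 0.13 (SE, n = 2 per group), adjusted p = 0.00052). Others of the lysosome were MCOLN1 (0.96 ± 0.16, adjusted p = 0.00401), a calcium channel, CLCN7 (0.86 ± 0.12, adjusted p = 0.00185), CTSL (0.85 ± 0.13, adjusted p = 0.00294), ASAH1 (0.82 ± 0.13, adjusted p = 0.00333) and TFEB (0.72 ± 0.18, adjusted p = 0.025), the transcription factor of lysosome genes. With the fit repeated without DMSO replicate 1 and without DMSO replicate 2, 4 and 2 autophagy genes and 6 and 3 lysosome genes were called higher. Of the lysosome genes, 2 were called lower by DESeq2 and with no filter, and 1 with upper-quartile scaling, library size alone, the stricter filter of 10 counts in each sample, the replicate block and the transcript length correction. BNIP3 and TFEB lost significance without DMSO replicate 1 (adjusted p between 0.0804 and 0.157). OPTN, BNIP3, ASAH1, TFEB and CTSL did not pass the test without DMSO replicate 2 (adjusted p between 0.0523 and 0.17). OPTN and TFEB missed the threshold without compound 4 replicate 1 (adjusted p between 0.0508 and 0.0646). TFEB was not called with DESeq2 (adjusted p = 0.0834).

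Of 37 genes of MAP kinase feedback and early response, 14 were called higher and 0 lower (median 0.35), and 6 had a log2 fold change below 0. EGR1, an early growth response factor, measured 3.05 and 3.12 CPM in the DMSO replicates, against 15.9 and 11.2 CPM in those of compound 4 (log2 fold change 2.13 ± 0.38 (SE, n = 2 per group), adjusted p = 0.00549). The MAP kinase phosphatase DUSP6 measured 133 and 125 CPM in the DMSO replicates, against 232 and 242 CPM in those of compound 4 (log2 fold change 0.87 ± 0.11 (SE, n = 2 per group), adjusted p = 0.00139). EREG, a ligand of the EGF receptor, measured 21.9 and 19.3 CPM in the DMSO replicates, against 59.6 and 56.2 CPM in those of compound 4 (log2 fold change 1.49 ± 0.28 (SE, n = 2 per group), adjusted p = 0.00761). The groups did not overlap in these genes. Further members were DUSP4 (1.88 ± 0.36, adjusted p = 0.0079), KLF4 (1.66 ± 0.35, adjusted p = 0.0125), EPHA2 (1.20 ± 0.22, adjusted p = 0.00646) and SPRY4 (1.03 ± 0.18, adjusted p = 0.00455). FOS measured 12.2 and 7.64 CPM in DMSO, against 6.50 and 7.57 CPM after treatment (log2 fold change -0.48 ± 0.23 (SE, n = 2 per group), adjusted p = 0.217). Its log2 fold change lay between -0.79 and -0.12 across the alternative fits. TGACGTCA was found in 2 of the 11 starts of 10 genes called higher and TGANTCA in 0, against 1.65% and 6.57% of all promoters and 2.54% and 4.36% of those of tested genes. Repeating the fit without DMSO replicate 1 and without DMSO replicate 2, 6 and 4 members were called higher. DUSP4, KLF4, EPHA2 and SPRY4 lost significance without DMSO replicate 1 (adjusted p between 0.05001 and 0.0891). EGR1, EREG, KLF4 and EPHA2 did not pass the test without DMSO replicate 2 (adjusted p between 0.0655 and 0.087).

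Of 46 adhesion, matrix and cytoskeleton genes, 15 were called higher and 3 lower (median 0.33), and of 31 YAP and TGF beta targets 10 and 0 (median 0.28). TIMP1, an inhibitor of matrix proteases, measured 28.1 and 18.7 CPM in DMSO, against 59.9 and 56.2 CPM after treatment (log2 fold change 1.32 ± 0.17 (SE, n = 2 per group), adjusted p = 0.00147). Rises were also called for its relative TIMP2 (1.65 ± 0.20, adjusted p = 0.000965), and for ANKRD1 (2.28 ± 0.31, adjusted p = 0.00165) and AXL (1.59 ± 0.36, adjusted p = 0.0182). FLNA, which crosslinks actin, measured 532 and 574 CPM in DMSO, against 1402 and 969 CPM after treatment (log2 fold change 1.10 ± 0.19 (SE, n = 2 per group), adjusted p = 0.00453), and STMN1 (-1.10 ± 0.16, adjusted p = 0.00191), which destabilizes microtubules, was called lower. CCN2 measured 144 and 110.2 CPM in DMSO, against 151 and 192 CPM after treatment (log2 fold change 0.44 ± 0.15 (SE, n = 2 per group), adjusted p = 0.0784). In fits without DMSO replicate 2, 7 of the first list and 3 of the second were called higher. AXL lost significance without DMSO replicate 1 (adjusted p = 0.0572). AXL did not pass the test without DMSO replicate 2 (adjusted p = 0.168).

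Of the 4 tested markers of other cells, 2 were called higher: PDGFRB, a marker of stellate cells, measured 2.66 and 1.64 CPM in DMSO, against 8.55 and 6.32 CPM after treatment (log2 fold change 1.80 ± 0.35 (SE, n = 2 per group), adjusted p = 0.00864), and the macrophage marker CD68 38.5 and 27.2 CPM in DMSO, against 56.3 and 57.6 CPM after treatment (log2 fold change 0.80 ± 0.15 (SE, n = 2 per group), adjusted p = 0.0079). The other 2 lay lower without passing the test, among them ACTA2 of smooth muscle and activated stellate cells with 18.9 and 15.9 CPM in DMSO, against 13.4 and 12.4 CPM after treatment (log2 fold change -0.43 ± 0.16 (SE, n = 2 per group), adjusted p = 0.118). The summed level of the 23 markers was 64.9 and 48.3 CPM in DMSO, and 82.6 and 80.5 CPM after treatment. The defining markers DCN, LUM, COL1A2, PTPRC and CD163 were at 0 in all 4 libraries. CD68 shares 77.3% of its 31-base stretches with other genes. PDGFRB and CD68 lost significance without DMSO replicate 2 (adjusted p between 0.0859 and 0.106).

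The S100 genes, small calcium-binding proteins, were picked after their values had been seen. Of 11 tested, 9 were called higher (median 1.62), S100A2 with 0.591 and 0.247 CPM in DMSO, against 2.31 and 2.42 CPM after treatment, while S100A1 and S100A10 were not. S100P measured 139.9 and 98.9 CPM in DMSO, against 346 and 388 CPM after treatment, S100A6 23.3 and 15.5 CPM in DMSO, against 69.5 and 59.9 CPM after treatment and S100A11 18.8 and 14.6 CPM in DMSO, against 58.5 and 48.5 CPM after treatment. Fold changes were S100A3 (2.63 ± 0.25, adjusted p = 0.000336), S100A2 (2.51 ± 0.49, adjusted p = 0.00898), S100A14 (1.79 ± 0.31, adjusted p = 0.00477), S100A6 (1.74 ± 0.18, adjusted p = 0.000487), S100A11 (1.68 ± 0.16, adjusted p = 0.000338), S100P (1.62 ± 0.16, adjusted p = 0.000399), S100A4 (1.25 ± 0.17, adjusted p = 0.00159), S100A16 (0.96 ± 0.14, adjusted p = 0.00233) and S100A13 (0.60 ± 0.13, adjusted p = 0.0159). S100A10 measured 44.8 and 38.6 CPM in DMSO, against 44.8 and 41.7 CPM after treatment (log2 fold change 0.05 ± 0.13 (SE, n = 2 per group), adjusted p = 0.832). S100A13, S100A14 and S100A2 lost significance without DMSO replicate 2 (adjusted p between 0.0693 and 0.167).

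Secreted liver proteins split. Of 27 plasma protein genes, 5 were called lower and 3 higher (median -0.29, -0.31 to -0.13 with 1 library left out), of 24 coagulation genes 4 and 2 (median -0.11, -0.21 to -0.0754 with 1 library left out), and of 23 apolipoprotein and lipoprotein assembly genes 8 and 1 (median -0.20, -0.27 to -0.0609 with 1 library left out). HP, the hemoglobin scavenger haptoglobin, measured 31.1 and 32.6 CPM in DMSO, against 9.06 and 13.5 CPM after treatment (log2 fold change -1.49 ± 0.19 (SE, n = 2 per group), adjusted p = 0.00122). MTTP, which loads lipid onto apolipoprotein B, measured 155 and 140.0 CPM in DMSO, against 78.6 and 78.6 CPM after treatment (log2 fold change -0.91 ± 0.13 (SE, n = 2 per group), adjusted p = 0.00213), and APOA5, a regulator of triglyceride clearance, 86.9 and 77.6 CPM in DMSO, against 34.4 and 44.3 CPM after treatment (log2 fold change -1.06 ± 0.21 (SE, n = 2 per group), adjusted p = 0.00945). The groups did not overlap. The fibrinogen chains FGA (-0.56 ± 0.15, adjusted p = 0.0413) and FGG (-0.70 ± 0.17, adjusted p = 0.0233) and the carboxypeptidase CPB2 (-1.08 ± 0.15, adjusted p = 0.00183) were called lower. With the fit repeated without DMSO replicate 1, 1, 1 and 2 members of the 3 lists were called lower and 3, 1 and 1 higher, and without DMSO replicate 2 1, 1 and 2 lower and 0, 1 and 0 higher. Of the apolipoprotein list, 4 were called lower and 4 higher without compound 4 replicate 1, and 6 and 3 by DESeq2, so the predominance of falls was not kept in every fit. FGG, FGA and APOA5 lost significance without DMSO replicate 1 (adjusted p between 0.0658 and 0.155). FGG, FGA and APOA5 did not pass the test without DMSO replicate 2 (adjusted p between 0.0567 and 0.181). FGG and FGA missed the threshold without compound 4 replicate 1 (adjusted p between 0.0703 and 0.135). Under the replicate block, FGA had an adjusted p of 0.0516.

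Other plasma proteins rose or did not pass. IGFBP1, which binds insulin-like growth factors, measured 1327 and 1051 CPM in DMSO, against 2336 and 2665 CPM after treatment (log2 fold change 1.07 ± 0.19 (SE, n = 2 per group), adjusted p = 0.00508), and IGFBP3 27.7 and 18.99 CPM in DMSO, against 81.8 and 62.6 CPM after treatment (log2 fold change 1.63 ± 0.19 (SE, n = 2 per group), adjusted p = 0.000867). The thyroxine carrier TTR (0.66 ± 0.18, adjusted p = 0.0365) was called higher. SERPINA1 measured 4192 and 3582 CPM in DMSO, against 3652 and 3791 CPM after treatment (log2 fold change -0.06 ± 0.11 (SE, n = 2 per group), adjusted p = 0.768), and ALB did not pass either (log2 fold change -0.32 ± 0.14 (SE, n = 2 per group), adjusted p = 0.163). Hepatocyte transcription factor genes were called higher in 3 and lower in 2 of 33 cases (median 0.08, -0.0019 to 0.15 with 1 library left out), with HNF4A at 362 and 365 CPM in DMSO, against 406 and 364 CPM after treatment (log2 fold change 0.08 ± 0.10 (SE, n = 2 per group), adjusted p = 0.64). The share called among these factors was 15.2%, near the 11.9% of all genes tested. Of these factors, 2 and 1 were called higher and lower without DMSO replicate 1, and 1 and 0 without DMSO replicate 2. IGFBP1 and TTR lost significance without DMSO replicate 2 (adjusted p between 0.0731 and 0.289). TTR did not pass the test without compound 4 replicate 2 (adjusted p = 0.0977).

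Bile acid and iron genes changed in both directions. SLC51B, a basolateral bile acid exporter, measured 11.2 and 9.45 CPM in DMSO, against 33.1 and 41.0 CPM after treatment (log2 fold change 1.85 ± 0.17 (SE, n = 2 per group), adjusted p = 0.000336), and NR0B2, the corepressor SHP, 76.5 and 70.4 CPM in DMSO, against 148 and 166 CPM after treatment (log2 fold change 1.09 ± 0.13 (SE, n = 2 per group), adjusted p = 0.00101). The bile acid receptor NR1H4 was called lower, with 32.6 and 40.8 CPM in DMSO, against 18.1 and 21.0 CPM after treatment (log2 fold change -0.91 ± 0.16 (SE, n = 2 per group), adjusted p = 0.00508), as was KLB (-1.10 ± 0.15, adjusted p = 0.00177), the co-receptor of FGF19. CYP7A1, the rate-limiting enzyme of bile acid synthesis, was at 1.38 and 2.06 CPM in DMSO, and at 0.171 and 0.156 CPM, under 3 counts, after treatment. HAMP, the iron hormone hepcidin, measured 26.2 and 17.5 CPM in DMSO, against 53.9 and 59.6 CPM after treatment (log2 fold change 1.38 ± 0.17 (SE, n = 2 per group), adjusted p = 0.00122), and the iron exporter SLC40A1 38.9 and 35.2 CPM in DMSO, against 66.8 and 59.2 CPM after treatment (log2 fold change 0.77 ± 0.12 (SE, n = 2 per group), adjusted p = 0.00266). Of 22 bile acid genes 3 were called higher and 5 lower, and of 27 iron genes 5 and 3. Repeating the fit without DMSO replicate 2 these counts were 2 and 1, and 2 and 1. NR1H4 and SLC40A1 lost significance without DMSO replicate 2 (adjusted p between 0.052 and 0.0736).

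Of 33 hypoxia and glycolysis genes, 8 were called lower and 4 higher (median -0.34). SLC2A1, the glucose transporter GLUT1, measured 1293 and 1205 CPM in DMSO, against 2361 and 2517 CPM after treatment (log2 fold change 0.97 ± 0.11 (SE, n = 2 per group), adjusted p = 0.00092), whereas ALDOC (-0.87 ± 0.17, adjusted p = 0.00849) and PFKFB4 (-1.09 ± 0.13, adjusted p = 0.00111) of glycolysis were called lower. PFKP and HK1, also of glycolysis, were among the 4 called higher. HK1 was not called with DESeq2 (log2 fold change 1.13, adjusted p = 0.0667) or with a fit of the 4 samples alone (adjusted p = 0.0538). CA9, a hypoxia marker, measured 46.7 and 36.8 CPM in DMSO, against 29.1 and 32.3 CPM after treatment (log2 fold change -0.44 ± 0.18 (SE, n = 2 per group), adjusted p = 0.134). Library size alone as scaling gave 12 members called lower, and without DMSO replicate 1 and without DMSO replicate 2 there were 1 and 2, against 2 and 1 called higher. ALDOC lost significance without DMSO replicate 1 (adjusted p = 0.0767).

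The p53 targets, 3 called higher and 2 lower of 35 (median -0.12), stayed near the share of all genes, and without DMSO replicate 2 none of them was called. Rises were called for GADD45B (1.27 ± 0.25, adjusted p = 0.00856) and PLK3 (1.39 ± 0.29, adjusted p = 0.0122), and falls for SESN1 (-0.99 ± 0.19, adjusted p = 0.00919) and DDB2 (-0.70 ± 0.16, adjusted p = 0.0155). CDKN1A, the cell cycle inhibitor p21, measured 61.3 and 57.0 CPM in DMSO, against 73.5 and 78.1 CPM after treatment (log2 fold change 0.36 ± 0.11 (SE, n = 2 per group), adjusted p = 0.0532), and MDM2 189 and 179.7 CPM in DMSO, against 198 and 184 CPM after treatment (log2 fold change 0.06 ± 0.10 (SE, n = 2 per group), adjusted p = 0.766). Long noncoding RNAs of stress were called higher in 5 and lower in 2 of 24 cases, with NEAT1, the scaffold of paraspeckles, at 151 and 126 CPM in DMSO, against 444 and 331 CPM after treatment (log2 fold change 1.48 ± 0.26 (SE, n = 2 per group), adjusted p = 0.00496). MIR22HG and MALAT1, also called higher, lost their calls without either DMSO replicate, with log2 fold changes between 0.84 and 1.19. MIR210HG, called lower, was not called with DESeq2 (log2 fold change -1.11, adjusted p = 0.128). Of 54 cytosolic ribosomal protein genes, 42 nuclear respiratory chain genes and 13 mitochondrial transcripts, 0, 1 and 0 were called by edgeR and 0, 1 and 0 by DESeq2. Of the ribosomal and mitochondrial transcripts, 6 and 0 had an unadjusted p under 0.05. The median log2 fold change of the ribosomal protein genes was 0.19, with all 54 above 0, against 0.29 and 0.0611 without compound 4 replicates 1 and 2 and 0.25 and 0.0991 without DMSO replicates 1 and 2. Without compound 4 replicate 1, 3 ribosomal and 3 respiratory chain genes were called higher, and without either DMSO replicate 0 of both. GADD45B, DDB2 and PLK3 lost significance without DMSO replicate 1 (adjusted p between 0.0696 and 0.0948). SESN1, GADD45B, DDB2, PLK3 and NEAT1 did not pass the test without DMSO replicate 2 (adjusted p between 0.0668 and 0.108). DDB2 missed the threshold without compound 4 replicate 2 (adjusted p = 0.06).

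The replicates differed from each other by transcript length. Tested genes averaging 5 CPM or more were split into 5 groups by their longest transcript. Compound 4 replicate 2 minus replicate 1 had a median of 0.19 on the log2 scale in the shortest group and -0.27 in the longest, and DMSO replicate 2 minus replicate 1 of -0.11 and 0.13. The median log2 fold change between treatments was 0.06 and -0.05. APOB, with a very long transcript, measured 5679 and 7468 CPM in the DMSO replicates, against 6521 and 2889 CPM in those of compound 4, and the groups overlapped. ITGA2 measured 139 and 162 CPM in DMSO, against 277 and 168 CPM after treatment (log2 fold change 0.56 ± 0.22 (SE, n = 2 per group), adjusted p = 0.132). Its log2 fold change lay between 0.15 and 0.89 across the alternative fits. A correction for transcript length in each library, chosen after the data had been seen, called 2189 genes.

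Compounds 5 and 6, other plastic antioxidants, were given at their own IC50 concentrations and compared with the same DMSO libraries, so values are only set side by side. CYP1A1 measured 11.5 and 7.46 CPM for compound 5, and 16.5 and 29.5 CPM for compound 6. MT2A measured 253 and 294 CPM for compound 5, and 97.5 and 189.5 CPM for compound 6.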

How the data were processed

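RNA was taken from CYP3A4-overexpressing HepG2 cells, and strand-specific libraries were sequenced. The authors quantified reads with Salmon 1.5.0 on a GENCODE transcriptome of GRCh38 and summarized them per gene by tximeta. What was deposited are estimated counts as whole numbers, unscaled, for 60230 genes. Symbols matched 60089 identifiers, and positions, transcript lengths and shared stretches came from GENCODE 29, an earlier release than the one counted on.

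The analysis used edgeR 4.0.16 in R 4.3.3. Genes were kept by filterByExpr, libraries scaled by TMM, and all 8 samples fitted by group with the quasi-likelihood F-test. A gene was called where its p, adjusted by Benjamini-Hochberg over all genes tested, was under 0.05, and SE was the log2 fold change over the root of F. The procedure was tested on simulated data.

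Members and gene lists were chosen with earlier results of these data known, and a gene may be in several lists. Genes were picked for naming outside 2 lists set aside, and not all of them are described in the text. They were the 12 highest and 12 lowest called genes that averaged 5 CPM or more with groups apart, the 6 largest rises and falls in CPM, CYP3A4, and from each list its anchors and up to 6 called members with the largest change. Further members of the sterol, NRF2, metallothionein and lysosome lists, the S100 genes and 8 promoter patterns were chosen after values had been seen. Shared 31-base stretches were counted between transcripts of different genes.

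The replicate number was used as a block in an alternative, since the labels give it as a day. Deviations of same-numbered replicates of compound 4 and DMSO correlated at -0.07 across genes. Chi-square per degree of freedom between replicates was 5.51 in DMSO and 17.2 with compound 4, so none was counted as a duplicate. Alternatives were DESeq2 1.42.0, other scalings and filters, the block, a fit of 4 samples, a cutoff of 0.01, fits without 1 library, and a correction for transcript length added later. Results for some genes are not reported here, and list counts include every member tested.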

Additional observations from a re-analysis of the deposited data

How the results depend on the processing

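At a cutoff of 0.01, 591 genes were called, 339 higher and 252 lower. Leaving out 1 library gave between 335 and 1662 calls, 193 to 824 higher and 142 to 838 lower. DMSO replicate 1 left out gave 663 (377 and 286), and DMSO replicate 2 the lowest counts. Every other setting stayed within 1.5 times the full count: DESeq2 called 1389, the fit of 4 samples 1339, the replicate block 1549 and no filter 2265. No scaling moved the median of all genes by over 0.1, but library size alone lowered the share called higher from 54.5% to 46.7%. None of the 1598 calls changed direction in any setting, which their lack of overlap fixes in advance for the fits without 1 library. Of 219 genes that were picked for naming and called, the replicate block ended 10 calls: EEF2, FGA, ABCA1, LIPG, HHEX, CPS1, RDH11, LAMP1, CCN1 and PIK3IP1, with adjusted p from 0.0510 to 0.0631. The block ended no other call among them. DESeq2 ended 9 (HK1, C8A, HHEX, UGT1A1, CPS1, ATG4A, TFEB, PIK3IP1 and MIR210HG) and gave 5 no adjusted p, the fit of 4 samples ended 18, leaving out DMSO replicates 1 and 2 ended 81 and 120, and leaving out compound 4 replicates 1 and 2 ended 42 and 29. Some genes that did not pass the test changed sign, and the cause was not tested. With the transcript length correction, their log2 fold change was MTF1 0.0101, VEGFA 0.0562 and MT-CO1 -0.0169. With scaling by library size alone, their log2 fold change was C3 -0.0092, MT-CO1 -0.0168, NDUFA9 -0.0254 and INSIG2 -0.0163. With upper-quartile scaling, their log2 fold change was NDUFA9 -0.0054. With 1 library left out it ranged as follows: TIPARP -0.19 to 0.13, MTF1 -0.12 to 0.0415, HSPA5 -0.15 to 0.0136, PPARA -0.23 to 0.44, VEGFA -0.17 to 0.0603, SERPINA1 -0.17 to 0.0551, F2 -0.21 to 0.0393, C3 -0.0915 to 0.16, APOB -1.19 to 0.003, CEBPA -0.0995 to 0.33, ABCB1 -0.0059 to 0.29, UGT2B7 -0.0238 to 0.35, SMAD7 -0.18 to 0.0227, NFE2L1 -0.0384 to 0.15, PSMD4 -0.12 to 0.0632, HSPA1B -0.0029 to 0.51, MT-CYB -0.0829 to 0.0888, MT-CO1 -0.0354 to 0.0936, SDHA -0.17 to 0.0061, COX4I1 -0.0359 to 0.36, NDUFA9 -0.0569 to 0.0878, RPLP0 -0.0646 to 0.23, S100A1 -0.19 to 0.16, S100A10 -0.0495 to 0.16, INSIG2 -0.0316 to 0.0796. Depth limits statements on genes near 3 counts, such as MT1H and MT1M.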
